A study of Mus musculus with 25 samples.

Results

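Inflammasomes are protein platforms that assemble in the cytosol when a sensor detects infection or cell damage. The sensor recruits the adaptor ASC, ASC recruits pro-caspase-1, and active caspase-1 cuts the precursors of interleukin-1β and interleukin-18 and the pore former gasdermin D. In microglia, the resident macrophages of the brain, the NLRP3 inflammasome is known for its part in models of Alzheimer's disease. Without a threshold on measured values, the 9 genes described here were taken by name from the 43411 genes of a microglial RNA-seq table. Their choice was made with earlier results of these data known. They comprise the sensor genes Nlrp3, Nlrp1b and Aim2, the adaptor gene Pycard, the caspase genes Casp1, Casp4 and Casp8, the pore gene Gsdmd and the cytokine gene Il18. All 9 had a row in the table and passed the filter on low counts.

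Microglia were sorted as CD11b+ CD45med cells from the brains of 3 month-old mice, without cerebellum and olfactory bulbs. Homozygous Bin1-cKO mice (Bin1flox/flox Thy1-Cre+, 5 females and 5 males) and heterozygous Bin1-cKO mice (Bin1flox/wt Thy1-Cre+, 4 females and 3 males) were compared with WT littermates (Bin1flox/wt Thy1-Cre-, 2 females and 4 males). Per the study's methods, Thy1-Cre deletes the floxed gene after birth in forebrain excitatory neurons, and the WT littermates also carry a floxed allele. The strain labels are B6.129S6-Bin1tm2Gcp/J for the floxed line and FVB/N-Tg(Thy1-cre)1Vln/J for the Cre line. Each library came from 1 mouse and held 10812969 to 16734846 counts. All WT and heterozygous mice carry animal numbers 02xx, whereas the homozygous mice carry 03xx (6 mice) or 04xx (4 mice), so that genotype and animal-number range cannot be told apart. Bin1 itself was lower in the sorted cells of homozygous mice, at 327.6 to 672.7 CPM (median 468.6), than in WT littermates, at 599.7 to 814.0 CPM (median 688.6), with a log2 fold change of -0.60 and an adjusted p of 0.0017, and this bulk measure does not check the deletion in neurons.

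Casp1 and Casp4 are neighbours on chromosome 9 of the mouse genome (GRCm38). Casp1 spans 5298517 to 5307265 and Casp4 spans 5308828 to 5336783, on the same strand and 1.56 kb apart. Casp4 encodes caspase-11, which detects bacterial lipopolysaccharide in the cytosol. Nlrp3 lies on chromosome 11 at 59541568 to 59566956 and Nlrp1b on the same chromosome at 71153102 to 71230733. The 250 bases before a RefSeq start site (GRCm38.p6, plus strand) are shown for Casp1, the gene that differed in both homozygous comparisons below, for its neighbour Casp4, and for Nlrp3. Of the sensors, Nlrp3 had the largest SD relative to its mean within each genotype, in WT littermates by little (12.19% against 12.12% for Nlrp1b). Capitals mark matches to the NF-kB motif.
Casp1, chr9:5298267-5298516: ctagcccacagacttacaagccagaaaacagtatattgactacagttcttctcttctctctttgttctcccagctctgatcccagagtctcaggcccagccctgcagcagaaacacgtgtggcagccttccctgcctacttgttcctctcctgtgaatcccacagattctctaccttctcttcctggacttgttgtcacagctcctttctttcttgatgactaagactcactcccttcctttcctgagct
Casp4, chr9:5308599-5308848: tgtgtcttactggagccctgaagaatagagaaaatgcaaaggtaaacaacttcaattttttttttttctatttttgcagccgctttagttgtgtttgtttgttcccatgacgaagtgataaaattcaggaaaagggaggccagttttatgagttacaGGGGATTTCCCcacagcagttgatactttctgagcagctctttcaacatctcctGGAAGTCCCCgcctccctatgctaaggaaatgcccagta
Nlrp3, chr11:59541319-59541568: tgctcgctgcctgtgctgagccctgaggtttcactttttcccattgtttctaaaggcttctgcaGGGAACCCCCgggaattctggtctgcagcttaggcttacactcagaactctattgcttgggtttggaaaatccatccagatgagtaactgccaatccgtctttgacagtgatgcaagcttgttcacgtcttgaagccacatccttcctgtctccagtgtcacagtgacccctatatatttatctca
The motifs were searched on both strands, from 250 bases before to 50 bases after the start site. The Casp4 window held overlapping NF-kB matches from base -93 to -83 and another from -39 to -30, counted with the start site as 0, and the Nlrp3 window held a match from -186 to -177. A window at another RefSeq start site of Nlrp3, chr11:59542436-59542735, held none. The Casp1 window held none. No window of the 8 genes with a RefSeq entry, Gsdmd having none, held the ISRE core (GAAA, any 2 bases, GAAA), the GAS motif TTCNNNGAA or the AP-1 motif TGANTCA. Over 32851 mouse promoters of the same length, 8.5% held the NF-kB motif, 3.4% the ISRE core, 8.3% the GAS motif and 7.8% the AP-1 motif. These are matches of letters only.

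Expression is given as CPM, counts scaled to a common TMM-normalized library total. To compare the genes with one another, CPM was divided by the length of the merged annotated exons. In WT littermates (n = 6), Casp8 had the highest level, with 80.2 ± 6.5 CPM per kb (mean ± SD), followed by Gsdmd with 63.8 ± 3.8 and Pycard with 60.7 ± 6.3. Il18 had 31.9 ± 3.9, Casp1 25.9 ± 1.2 and Nlrp3 17.0 ± 2.1 CPM per kb. Aim2 had 4.58 ± 0.50, Casp4 2.78 ± 0.31 and Nlrp1b 2.30 ± 0.28 CPM per kb. The death-receptor caspase, the pore former and the adaptor stood at the top of this order and the DNA sensor, caspase-11 and Nlrp1b at its bottom. Among neighbours in the WT order, the ranges of Gsdmd and Pycard overlapped, as did those of Casp4 and Nlrp1b, and the others did not. The order of the means was the same in homozygous mice. In these mice the ranges of all neighbours overlapped except Pycard with Il18 and Nlrp3 with Aim2. For example, Il18 ranged from 17.7 to 43.9 and Casp1 from 26.5 to 39.8 CPM per kb. In heterozygous mice Nlrp1b (2.98 CPM per kb) stood above Casp4 (2.82), the order being otherwise the same. With the principal transcript as the length, an alternative chosen after the data were seen, Casp4 (7.19 CPM per kb in WT littermates) stood above Aim2 (6.52).

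**Figure D1:**
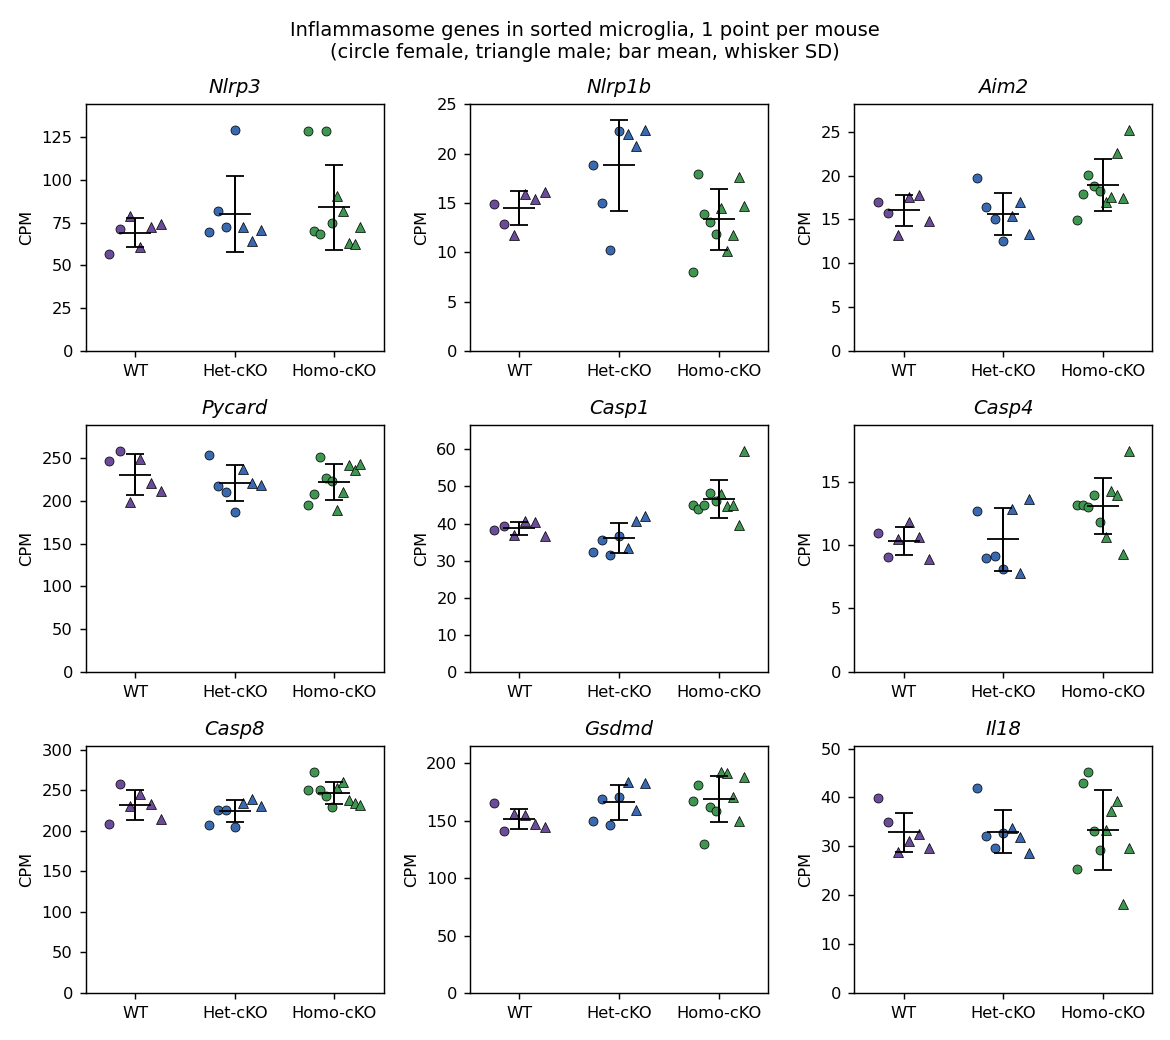
Expression of the 9 genes in CPM (y axis, from 0) by genotype (x axis), with 1 point per mouse, circles for females and triangles for males, the bar at the mean and whiskers of 1 SD. Of the 10 homozygous mice, 9 lie above every WT and heterozygous mouse for Casp1, and 3 mice near 129 CPM stand apart for Nlrp3.

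In the microglia of homozygous Bin1-cKO mice, Casp1 was higher than in WT littermates, and the other 8 genes did not pass the test. The question was whether the loss of neuronal Bin1 goes with a change of these genes in the surrounding microglia. In the quasi-likelihood test of edgeR (p adjusted by Benjamini-Hochberg over 12908 genes), 1 of the 9 genes had an adjusted p below 0.05, where 12.7% of all genes tested did. None of the 9 passed the fold change threshold of 1.5 as well, which 3.40% of all genes did, and for none did the homozygous and WT ranges stand apart, as they did for 1.81% of all genes. The median log2 fold change of the 9 was 0.174, beside 0.012 for all genes, and 6 of the 9 fold changes were above 0. Unadjusted p lay below 0.05 for 4 of the 9, beside 3496 of 12908 genes.

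Casp1, the effector caspase of canonical inflammasomes, measured 36.7 to 40.7 CPM in WT littermates (median 38.9) and 39.7 to 59.5 CPM in homozygous mice (median 45.0). The WT mice were close together, and 9 of 10 homozygous mice exceeded all of them, the exception being male M4 with 39.7 CPM. The log2 fold change was 0.28 ± 0.075 (SE), a 1.21-fold difference, with an adjusted p of 0.017. The 6 homozygous mice numbered 03xx ranged from 44.0 to 48.0 CPM and the 4 numbered 04xx from 39.7 to 59.5 CPM. Against WT littermates, the 03xx mice alone gave a log2 fold change of 0.24 (adjusted p = 0.041), whereas the 04xx mice alone gave 0.335 and did not pass (adjusted p = 0.063). Male M5, with 59.5 CPM, was the highest of all 23 mice, and without it the log2 fold change was 0.23 (adjusted p = 0.032).

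Casp4 measured 8.93 to 11.8 CPM in WT littermates (median 10.6) and 9.28 to 17.4 CPM in homozygous mice (median 13.1). Here 7 of 10 homozygous mice lay above every WT mouse, and M4 and M5 were again the lowest and the highest of the homozygous group. With 0.36 ± 0.142 (SE) the log2 fold change was numerically above that of Casp1, and the adjusted p was 0.10. Without M4 it was 0.415 with an adjusted p of 0.046. Over all 23 mice, between 97 and 235 reads lay behind the Casp4 values, and counting error alone was 10.2% at the lowest, that of heterozygous F4, against 5.1% at the lowest count of Casp1.

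Casp8 encodes the initiator caspase of death receptors, which can also act in place of caspase-1. It measured 208 to 258 CPM in WT littermates (median 231.9) and 230 to 273 CPM in homozygous mice (median 247). The groups overlapped broadly, and the log2 fold change was 0.09 ± 0.058 (SE) with an adjusted p of 0.32.

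Of the sensors, Aim2, which binds double-stranded DNA in the cytosol, measured 13.3 to 17.8 CPM in WT littermates (median 16.4) and 14.9 to 25.2 CPM in homozygous mice (median 18.1). Although 6 of 10 homozygous mice lay above all WT mice, the log2 fold change of 0.25 ± 0.113 (SE) had an adjusted p of 0.16. The highest value was again that of M5.

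Nlrp3, the sensor of membrane and ion disturbance, measured 56.8 to 78.7 CPM in WT littermates (median 71.8), 64.4 to 129 CPM in heterozygous mice (median 72.2) and 62.5 to 129 CPM in homozygous mice (median 73.8). The medians were close, and 3 females, homozygous F1 (128.6 CPM) and F4 (128.4) and heterozygous F4 (129.0), stood far above the other 20 mice, of which the highest was homozygous M1 with 90.5 CPM. For homozygous over WT mice it gave a log2 fold change of 0.23 ± 0.157 (SE) with an adjusted p of 0.37. This was 0.17 without homozygous F1, 0.17 without homozygous F4, 0.126 without WT F1 and 0.121 without the 4 mice of high Fos described below.

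Nlrp1b is activated when its own N-terminal part is degraded, and its sequence differs strongly between inbred strains. It measured 11.8 to 16.1 CPM in WT littermates (median 15.2) and 8.06 to 17.9 CPM in homozygous mice (median 13.5), with a log2 fold change of -0.09 ± 0.160 (SE) and an adjusted p of 0.77. Of its 50-base sequences, 1.5% also occur in other genes, mostly in its neighbour Nlrp1a. Alleles of the founder strains were not analysed here, for this gene or for any other, Casp4 and Casp1 among them.

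Pycard encodes ASC. It measured 199 to 258 CPM in WT littermates (median 234) and 190 to 252 CPM in homozygous mice (median 225), and the adjusted p was 0.70. Its exons overlap those of Gm45205 on the opposite strand over 12.8% of their length, and since the library kit does not mark strand the reads of both cannot be told apart there.

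Gsdmd measured 141 to 166 CPM in WT littermates (median 151) and 130 to 193 CPM in homozygous mice (median 169). Although 6 of 10 homozygous mice lay above every WT mouse, female F3 lay below all of them with 130 CPM. The log2 fold change was 0.17 ± 0.073 (SE) with an adjusted p of 0.12, and without F3 it was 0.203 with an adjusted p of 0.045.

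Il18 measured 28.9 to 39.8 CPM in WT littermates (median 31.9) and 18.2 to 45.2 CPM in homozygous mice (median 33.2). The means were 32.9 and 33.4 CPM and the log2 fold change was -0.004 ± 0.133 (SE), with an adjusted p of 0.99. The homozygous mice had the wider spread, with an SD of 24.6% of the mean against 12.3% in WT littermates. Those numbered 03xx averaged 37.2 ± 7.1 CPM (SD, n = 6) and those numbered 04xx 27.6 ± 6.5 CPM (SD, n = 4), and against WT littermates their log2 fold changes had opposite signs, 0.16 and -0.30, with adjusted p of 0.42 and 0.19.

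**Figure D2:**
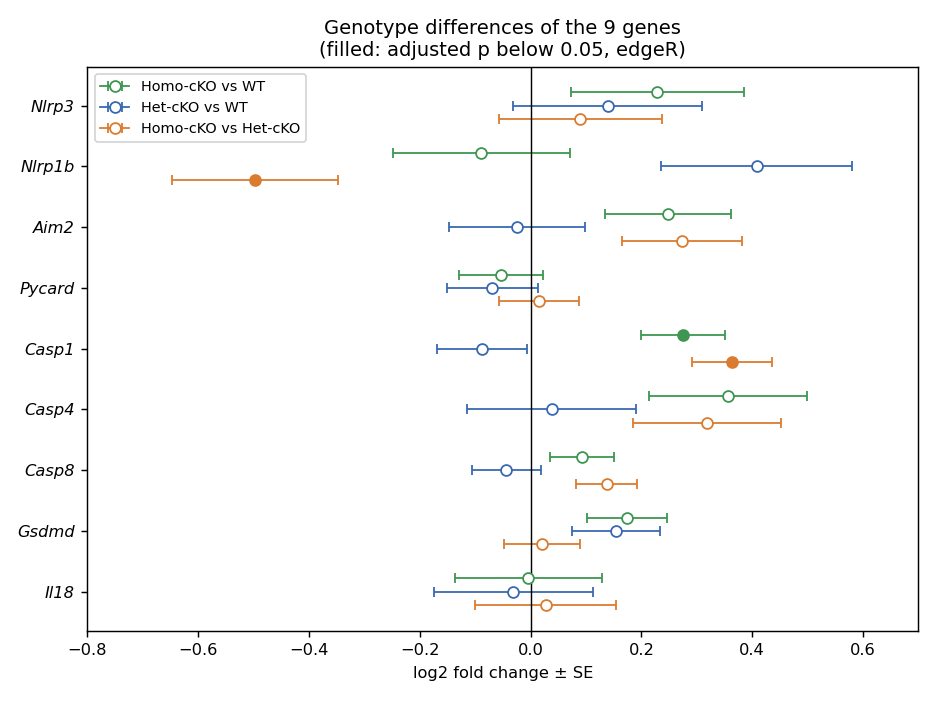
Log2 fold change (x axis) of each of the 9 genes (y axis) in the 3 genotype comparisons, with whiskers of 1 standard error and filled symbols for an adjusted p below 0.05. Casp1 is filled in both comparisons of homozygous mice, Nlrp1b in that with heterozygous mice, at -0.50, and no symbol is filled for heterozygous against WT mice.

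In heterozygous Bin1-cKO mice none of the 9 genes differed from WT littermates in the edgeR test, and 0.00% of all genes did. At an unadjusted p below 0.05 there were 998 of 12908 genes, among them 1 of the 9, and DESeq2 called 3 genes and limma-voom 0, none of them of the 9. The gene with the small unadjusted p was Nlrp1b, which measured 10.3 to 22.4 CPM in heterozygous mice (median 20.8). Here 5 of 7 heterozygous mice lay above every WT mouse and female F3 below all of them. The log2 fold change was 0.41 ± 0.172 (SE), with p = 0.026 and an adjusted p of 0.59 in edgeR. Casp1 measured 31.5 to 42.2 CPM in heterozygous mice (median 35.5), with 5 of 7 mice below every WT mouse and 2 above, and its log2 fold change of -0.09 had an adjusted p of 0.83. Casp4 measured 7.80 to 13.6 CPM (median 9.16), with 3 heterozygous mice above and 2 below the WT range, and Aim2 12.6 to 19.7 CPM (median 15.4). Gsdmd measured 146 to 184 CPM (median 169), with 4 of 7 heterozygous mice above every WT mouse and a log2 fold change of 0.15 ± 0.079 (SE, adjusted p = 0.67). Casp8 at 205 to 240 CPM (median 226), Pycard at 187 to 254 CPM (median 218) and Il18 at 28.7 to 42.0 CPM (median 32.2) overlapped WT littermates over most of their range, with adjusted p from 0.88 to 0.97.

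Homozygous and heterozygous mice both carry Thy1-Cre, so this comparison asks for the difference between losing 1 and both copies of neuronal Bin1. It shares the homozygous mice with the comparison above and is not independent of it. Casp1 was higher and Nlrp1b lower in homozygous mice, 2 of the 9 genes, where 22.7% of all genes tested had an adjusted p below 0.05. Neither passed the fold change threshold of 1.5, which 6.62% of all genes did, and the ranges of both groups overlapped for all 9 genes, whereas they stood apart for 2.32% of all genes. For Casp1 the log2 fold change was 0.36 ± 0.072 (SE), with an adjusted p of 1.0e-03, and 9 of 10 homozygous mice lay above every heterozygous mouse. For Nlrp1b it was -0.50 ± 0.150 (SE), or 0.709-fold, with an adjusted p of 0.019, and 2 of 10 homozygous mice, F1 (8.06 CPM) and M2 (10.2 CPM), lay below every heterozygous mouse. The Nlrp1b call did not hold without heterozygous F4 (-0.43, adjusted p = 0.056) or with the 04xx mice alone (-0.41, adjusted p = 0.12). The highest values of this gene were those of heterozygous mice. Side by side, its fold changes were -0.09 for homozygous and 0.41 for heterozygous mice, each against the same WT littermates.

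The other 7 genes had adjusted p above 0.05. Unadjusted p in edgeR lay below 0.05 for 5 of all 9, beside 4607 of 12908 genes. Aim2 had a log2 fold change of 0.27 (adjusted p = 0.069), Casp8 0.14 (0.071) and Casp4 0.32 (0.087), each higher in homozygous mice. For Nlrp3, Il18, Gsdmd and Pycard the log2 fold changes lay between 0.015 and 0.09, with adjusted p from 0.70 to 0.91. Casp4 passed without homozygous M4 (adjusted p = 0.041) and without heterozygous M4 (0.050). Casp8 passed in DESeq2 (adjusted p = 0.039) and with the 03xx mice alone (0.046). Aim2 passed without heterozygous F1 (0.026), without homozygous F1 (0.044) and without the 4 mice of high Fos described below (0.037).

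**Figure D3:**
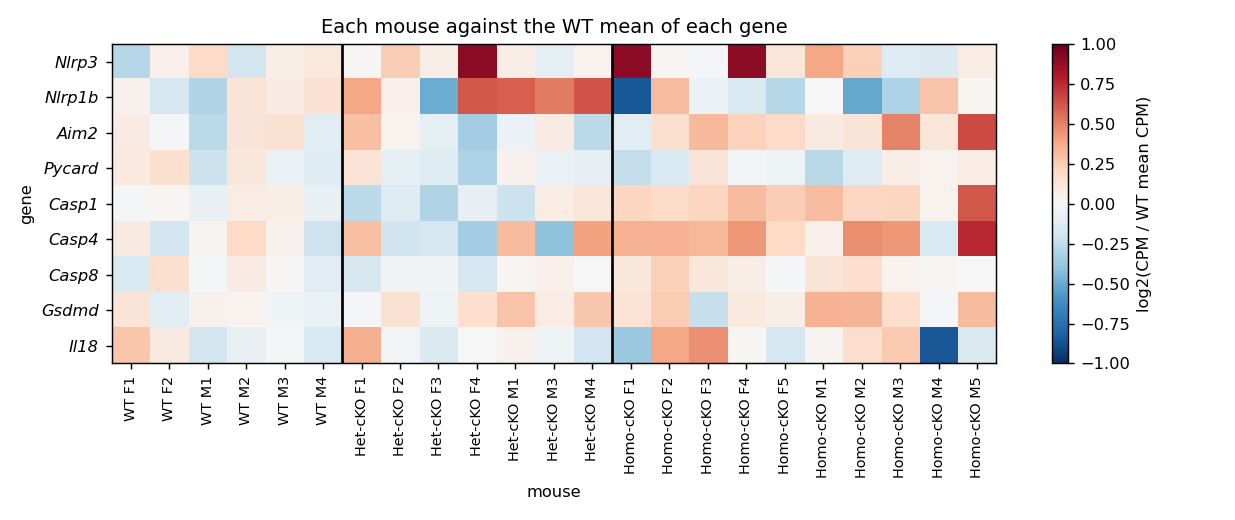
Each column is 1 of the 23 mice (x axis), each row 1 of the 9 genes (y axis), and the colour gives the log2 ratio of its CPM to the WT mean of that gene, red above and blue below. The Casp1 row is red in the homozygous mice except M4, which is near white, and M5 is reddest for Casp1, Casp4 and Aim2.

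Single mice were high in some of the genes and not in others. Homozygous M5 had the highest Casp1 (59.5 CPM), Casp4 (17.4 CPM) and Aim2 (25.2 CPM) of all 23 mice, with Nlrp3 at 72.5 CPM and Pycard at 243 CPM inside the ranges of the other groups. Homozygous M4 had the lowest Casp1 and Casp4 of its group and the lowest Il18 of all mice, 18.2 CPM. Homozygous F1 combined one of the 3 high Nlrp3 values with the lowest Nlrp1b of all mice and the lowest Aim2 of its group, 14.9 CPM.

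The genotype effect was also fitted within each sex. In females none of the 9 genes had an adjusted p below 0.05, where 0.457% of all genes did, and in males none, where 6.06% did. At an unadjusted p below 0.05 there was 1 of the 9 in females, Nlrp3 with a log2 fold change of 0.56 (adjusted p = 0.30), beside 1903 of 12908 genes, and there were 3 in males, beside 2633 of 12908 genes. For Casp1 the log2 fold change was 0.23 ± 0.122 (SE) in females and 0.29 ± 0.097 (SE) in males, with adjusted p of 0.39 and 0.077. The difference of the genotype effect between the sexes, tested as an interaction in edgeR, passed for none of the 9 genes (0.00% of all genes, with 644 of 12908 at an unadjusted p below 0.05, none of them of the 9). DESeq2 called 1 gene and limma-voom 0, none of the 9. The WT group holds 2 females, so the female comparison rests on few mice.

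Beyond the 9 genes, 46 other genes of the inflammasome and cell death pathways were listed. Of these, 45 had a row in the table and 37 passed the filter on low counts. Against WT littermates, 3 of the 37 were higher in homozygous mice and none lower, and against heterozygous mice 7 were higher and none lower, where 12.7% and 22.7% of all genes tested were called. None differed between heterozygous mice and WT littermates in edgeR, with 7 of 37 at an unadjusted p below 0.05 beside 998 of 12908 genes. The median log2 fold change of homozygous over WT mice was 0.166 over the 37, beside 0.012 for all genes.

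**Figure D4:**
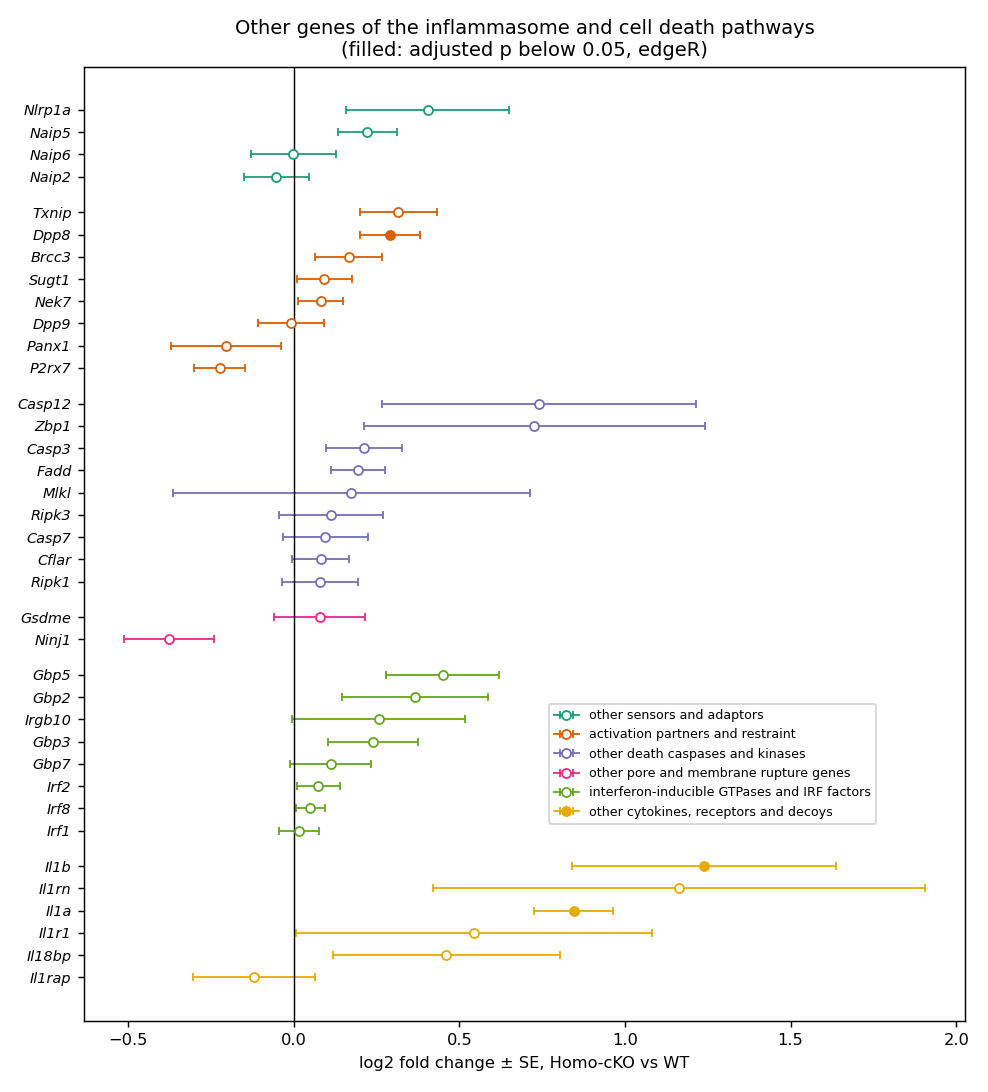
Log2 fold change of homozygous over WT mice (x axis, whiskers 1 standard error) for the 37 other pathway genes tested (y axis), coloured by group, with filled symbols for an adjusted p below 0.05. Il1a, Il1b and Dpp8 are filled, and the others are open.

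Among cytokines, receptors and decoys, 2 of 6 tested genes were higher in homozygous mice than in WT littermates, and both also passed the fold change threshold. Over all genes tested, 12.7% were called in this comparison and 3.40% also passed that threshold. Of all 37 pathway genes, 3 were called. Il1a encodes interleukin-1α, an alarmin that needs no caspase-1 for its activity. It measured 101 to 149 CPM in WT littermates (median 131), 93.2 to 125 CPM in heterozygous mice (median 102) and 168 to 318 CPM in homozygous mice (median 230). The homozygous mice lay above all others, with a log2 fold change over WT littermates of 0.845 ± 0.120 (SE), a 1.80-fold difference, and an adjusted p of 1.3e-04. Over all genes tested, the homozygous range stood apart from that of WT littermates for 1.81% and from that of heterozygous mice for 2.32%. Il1b, whose product is the main cytokine substrate of caspase-1, was far lower in abundance, at 0.293 to 2.86 CPM in WT littermates (median 1.82), 0.511 to 3.19 CPM in heterozygous mice (median 1.43) and 2.46 to 8.99 CPM in homozygous mice (median 3.44). Of the homozygous mice, 9 of 10 lay above every WT mouse. The log2 fold change was 1.24 ± 0.399 (SE) with an adjusted p of 0.041, and this call was lost under 8 of 34 alternatives, among them the 03xx mice alone (adjusted p = 0.20), the 04xx mice alone, and without any one of WT F2, M1 or M4 or homozygous F5, M2 or M4. The Il1a call held under all 34. Il18 thus showed no detectable difference between homozygous mice and WT littermates in the same libraries in which both interleukin-1 genes were higher. Whether the effect on Il18 differs from that on Il1a was not tested.

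Among activation partners and restraining factors, Dpp8 alone was called against WT littermates, 1 of 8 genes, where 12.7% of all genes tested were. Its product, a dipeptidyl peptidase, holds NLRP1B in check. It measured 45.6 to 59.6 CPM in WT littermates (median 48.5), 50.7 to 71.5 CPM in heterozygous mice (median 62.7) and 48.4 to 71.2 CPM in homozygous mice (median 63.9). The log2 fold change was 0.29 for homozygous mice (adjusted p = 0.036) and 0.27 for heterozygous mice (adjusted p = 0.52), both against the same WT littermates, and the first was lost under 10 of 34 alternatives, the highest adjusted p being 0.31 with the 04xx mice alone. Among the alternatives that lost it were the fits without WT F2, M1, M2 or M3 or without homozygous F2, M2 or M4. Against heterozygous mice, Brcc3, a deubiquitinase that acts on NLRP3, was higher by 0.405 (log2, adjusted p = 0.0041), and Txnip, a redox regulator that binds NLRP3, by 0.33 (adjusted p = 0.031). Txnip ranged from 755 to 841 CPM in homozygous F1, F2, M1 and M2, the 4 mice of high Fos described below, from 479 to 610 CPM in the other homozygous mice and from 477 to 547 CPM in heterozygous mice. With the 04xx mice alone its log2 fold change was 0.027. Its call was lost under 9 of 34 alternatives, among them the fits without those 4 mice, without heterozygous F4 or M1 or without homozygous F1, F2, M1 or M2. The Brcc3 call was lost with the 04xx mice alone (adjusted p = 0.11).

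Fadd, the adaptor that joins death receptors to caspase-8, was the only called gene among 9 other death caspases and kinases. It was called against heterozygous mice (log2 fold change 0.29, adjusted p = 0.0099), though not with the 04xx mice alone (0.11). Against heterozygous mice, 22.7% of all genes tested were called. All 9 death caspases and kinases had fold changes above 0 against WT littermates and none of them passed. Fold changes were also above 0 for all 8 of the interferon-inducible GTPases and IRF factors, and for 30 of all 37 pathway genes tested. The median log2 fold change over all genes was 0.012. Of 8 interferon-inducible GTPases and IRF factors, the transcription factor genes Irf8 (0.19, adjusted p = 0.0026) and Irf1 (0.16, adjusted p = 0.040) were higher in homozygous than in heterozygous mice, and none was called against WT littermates. The Irf8 ranges stood apart, at 780 to 893 CPM in heterozygous mice and 908 to 988 CPM in homozygous mice. The same held for 2.32% of all genes, and WT littermates lay at 880 to 994 CPM of Irf8. Of the 7 heterozygous mice, 6 lay below every WT mouse for Irf8 and 6 for Irf1, and the Irf1 call was lost under 14 of 34 alternatives, among them the fits without heterozygous F1, F2, F4, M1 or M4 or without homozygous F2, F4, F5, M3 or M5. None of 4 other sensor genes and none of the pore and membrane rupture genes Gsdme and Ninj1 was called in any genotype comparison. Nlrp12 was not analysed here, and the sensor genes Nlrp6, Nlrp10, Nlrc4, Naip1 and Mefv, at most 2.44 CPM in any mouse, did not pass the filter.

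Markers of other cells were measured in the same libraries. Summed CPM of 8 microglial genes was 60800 to 86800 in WT littermates, 56600 to 75900 in heterozygous and 52000 to 61200 in homozygous mice. Of the 8, 5 were called lower in homozygous mice than in WT littermates, beside 915 of 12908 genes called lower. In such bulk samples fewer cells of a type and less RNA per cell cannot be told apart. The 6 monocyte genes summed to 4.63 to 10.9 CPM in WT littermates, 4.43 to 13.9 in heterozygous and 8.81 to 25.3 in homozygous mice. Of the 3 tested, 1 was called higher in homozygous mice than in WT littermates and 1 than in heterozygous mice. Over all genes, 730 and 1428 of 12908 were called higher. The 5 neutrophil genes summed to 0 to 34.8 CPM in WT littermates (median 5.86), 0 to 46.0 in heterozygous (median 0) and 0 to 83.8 in homozygous mice (median 26.6), with no gene called. All 4 tested had fold changes above 0 for homozygous mice against either group. Of the 4, 2 had an unadjusted p below 0.05 in edgeR against heterozygous mice, beside 4607 of 12908 genes. Homozygous M5, with the highest Casp1, had 8.81 CPM of monocyte and 6.51 CPM of neutrophil genes, the lowest monocyte sum of its group. Homozygous M4, with the lowest Casp1 of its group, had 12.6 CPM of monocyte genes, the next lowest sum of the group, and 0 of neutrophil genes. Lymphocyte and NK cell genes summed to at most 1.13 CPM in any mouse, border macrophage genes to at most 50.8 CPM with Mrc1 listed at 0 in all, and endothelial genes to at most 69.8 CPM with Cldn5 listed at 0 in all. The 6 neuronal genes summed to 5.43 to 27.9 CPM in WT littermates and 1.32 to 5.49 in homozygous mice, and 3 of the 4 tested were called lower. Astrocyte genes summed to at most 9.78 CPM, and oligodendrocyte genes ranged from 151 to 238 CPM over all mice. The part of these cells in the results was not tested.

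Immediate-early genes such as Fos, which respond within minutes to stimulation of a cell, summed to 316 to 474 CPM in WT and heterozygous mice. In homozygous F1, F2, M1 and M2 they summed to 7530 to 11800 CPM and in the other 6 homozygous mice to 435 to 745 CPM. The 4 high mice are all numbered 03xx, so the fits with the 04xx mice alone also leave them out. These 4 mice had Casp1 at 44.0 to 48.0 CPM, inside the range of the other homozygous mice. Without them, the log2 fold change of Casp1 over WT littermates was 0.30 (adjusted p = 0.046) and over heterozygous mice that of Nlrp1b was -0.45 (adjusted p = 0.043). Over WT littermates, that of Gsdmd went from 0.174 to 0.092, that of Nlrp3 from 0.229 to 0.121 and that of Casp8 from 0.092 to 0.044, none of them called.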

How the data were processed

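RNA-seq of sorted microglia from 23 mice was analysed, 1 library per mouse. The authors aligned single-end reads of 50 bases to mm10 and estimated counts per gene with RSEM, and the deposited table holds these expected counts for 43411 genes, not normalized. Of 25 labelled samples, 2 had no column and were not analysed here, a WT female and a heterozygous male. The paper reports removing a sample of each of these groups for a low share of uniquely mapped reads and high duplication. The expected counts were rounded, 42929 genes were matched to symbols of GENCODE M21, and genes passing filterByExpr (12908) were tested with edgeR 4.0.16 in R 4.3.3 (quasi-likelihood test, TMM, genotype and sex as terms, Benjamini-Hochberg adjustment over all genes tested). Calls needed an adjusted p below 0.05, and DEGs also a fold change above 1.5. The sex interaction used a fit of genotype by sex. The fits were tested on simulated data with known changes. Alternatives were DESeq2 1.42.0, limma-voom (limma 3.58.1), other normalizations and filters, no sex term, only the compared genotypes, subsets of homozygous mice and each mouse left out. Named genes were the 9, up to 12 other pathway genes called in a genotype comparison, and Il1b. Single mice, and genes named as uncalled, untested or at 0, were chosen after their values were seen. The 9 genes, the lists and the mice of high Fos were chosen with earlier results of these data known. Replicates are separate mice. Promoters are from RefSeq and plots from matplotlib.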

Additional observations from a re-analysis of the deposited data

Results flagged for a closer look

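In each genotype the highest and the lowest mouse of each of the 9 genes was compared with its nearest neighbour, relative to the range of the group. Of 27 such sets, 3 held a mouse past Dixon's 95% critical value, where chance gives about 1 in 20. Heterozygous F4 had 129.0 CPM of Nlrp3, far above the other 6 heterozygous mice, and without it the log2 fold change of heterozygous over WT mice went from 0.14 to 0.018. Homozygous M5 had 59.5 CPM of Casp1, against 48.3 CPM in the next of the 10 homozygous mice. Heterozygous F1 had 42.0 CPM of Il18, the highest of 7. The 2 homozygous mice at 128.4 and 128.6 CPM of Nlrp3 lie next to each other and so passed no such limit. None of the 9 genes passed the test of a difference between the sexes in the genotype effect of homozygous against WT mice. Levels in males and females were not compared directly.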

How the results depend on the processing

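Of 34 alternatives for homozygous against WT mice, Casp1 passed in all but the homozygous mice numbered 04xx alone, which left 0 of the 9 genes. Each mouse left out in turn left 1 to 2 genes, Gsdmd being added without homozygous F3 and Casp4 without homozygous M4. For homozygous against heterozygous mice, the 04xx mice alone left 1 gene, and each mouse left out gave 1 to 3 genes, the 1 being the fit without heterozygous F4, in which Nlrp1b was lost. Heterozygous against WT mice and the sex difference of the genotype effect gave 0 genes under every alternative run. Over the 27 fold changes and their alternatives, 840 kept sign and side of the threshold, 9 gained a call, 3 lost one and 39 changed sign, all of the latter in differences that were not called. With the 04xx mice alone, homozygous against WT mice gave log2 fold changes of 0.008 for Pycard and 0.019 for Nlrp1b, and against heterozygous mice -0.013 for Gsdmd and -0.251 for Il18. The 03xx mice alone gave 0.162 for Il18 against WT and -0.026 for Pycard against heterozygous mice. Without the 4 mice of high Fos, Pycard was at 0.037 against WT mice, and against heterozygous mice Nlrp3 was at -0.015, Gsdmd at -0.061 and Il18 at -0.013. Without a sex term, Il18 was at 0.022 for homozygous and 0.007 for heterozygous against WT mice, and limma-voom gave -0.002 for Casp4 in the latter. Leaving out each mouse moved Il18 between -0.055 and 0.072 (homozygous against WT), -0.082 and 0.009 (heterozygous against WT) and -0.024 and 0.09 (homozygous against heterozygous). It moved Casp4 between -0.044 and 0.112 and Aim2 between -0.089 and 0.02 (both heterozygous against WT), and Pycard between -0.02 and 0.051 and Gsdmd between -0.001 and 0.055 (both homozygous against heterozygous). The cause was not tested. No paired analysis was possible because the labels give each mouse its own number. Genotype and animal-number range cannot be told apart, WT littermates include 2 females, and Casp4, Nlrp1b and Aim2 rest on 97 to 340 reads per mouse.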
